A study of Mus musculus with 6 samples.

Results

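The gene group described here is a set of 10 transcription factor genes that direct the myeloid fate of blood progenitors: the CCAAT/enhancer binding protein genes Cebpa, Cebpb, Cebpd, Cebpe and Cebpg, the PU.1 gene Spi1, and Irf8, Gfi1, Klf4 and Zeb2. They were chosen by gene symbol, and all 10 were among the 16022 genes of the deposited table. RNA was sequenced from LSK cells of the bone marrow, which carry no lineage markers but high Sca-1 together with c-kit, a fraction in which blood stem cells and the earliest progenitors are found. The 3 HDAC6 knockout samples (KO) were set against 3 wild-type samples (WT), all from mice. HDAC6 is a mainly cytoplasmic deacetylase, and the series title names the metabolic enzyme IDH1 as its substrate in these cells. The sources used here do not give the targeted allele, the strain, the sex or the age of the mice, or whether a sample was 1 animal or a pool. The p-values therefore measure the spread between these samples only, which may be technical.

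Myeloid commitment rests on a small circuit of DNA-binding proteins. PU.1 sets up enhancers in all myeloid cells, and C/EBP-alpha opens the granulocyte and monocyte path at the progenitor stage. C/EBP-epsilon acts later, in the granule program of neutrophils, and C/EBP-beta and C/EBP-delta are known for emergency and inflammatory responses. IRF8 pairs with PU.1 and favours monocytes and dendritic cells over neutrophils, while GFI1 is a repressor that favours neutrophils. KLF4 and ZEB2 act in the monocyte and dendritic branches. In bulk RNA a higher level in more cells of a type cannot be told apart from more RNA per cell.

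Total counts ran from 25993988 to 28743694 per library. Hdac6 mRNA checked the labels: it measured 7.69 to 11.3 CPM (counts scaled by the library total and its TMM factor) in KO libraries, against 54.3 to 68.0 CPM in WT libraries. Its log2 fold change of -2.66 (SE 0.19) carried an edgeR adjusted p of 0.000594. The sorted fraction held its defining transcripts: Kit measured 725 to 1082 CPM in KO and 1127 to 1367 CPM in WT libraries, and Ly6a, the Sca-1 gene, 82.1 to 119 CPM in KO and 60.3 to 68.7 CPM in WT libraries. KO replicate 2 stood apart in several myeloid genes, among them Mpo, the myeloperoxidase gene, at 14157 CPM against 5438 and 4735 CPM in the other KO libraries and 4277 to 6581 CPM in WT libraries. By a chi-square over 12880 genes, in which abundant ones weigh more, KO replicate 3 lay nearer to WT than to its own group. The chi-square per degree of freedom between its counts and those of another library was 53.8 and 58.4 for the other KO libraries, against 25.8 to 35.6 for the WT libraries. Its Hdac6 level was 11.3 CPM, below all WT libraries. Members' values without 1 of these libraries are given where they moved by over 1.5 times.

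No member passed the test. Of the 10 members, 9 passed the filter on low counts and 0 were called higher or lower by the quasi-likelihood test of edgeR at an adjusted p of 0.05. Of all 12875 genes tested, 0.00777% were called in either direction, which was Hdac6 alone, so this threshold separated almost nothing in these libraries. At an unadjusted p under 0.05 edgeR had 1 member, Cebpd, which lay above WT, against 13.4% of all genes in either direction and 7.24% above WT. DESeq2 called the same member higher, and of the genes with an adjusted p it called 0.897% higher and 1.35% in either direction. Of the 9 tested members, 8 lay above WT and 1, Gfi1, lay below. The 8 include Cebpa and Zeb2, with log2 fold changes of only 0.0055 and 0.043. Both lay below WT without KO replicate 2 (-0.19 and -0.21) and without WT replicate 1 (-0.14 and -0.11). Without KO replicate 3 their log2 fold changes were 0.23 and 0.095. The 9 members had a median log2 fold change of 0.40. Over all genes tested the median was -0.0034, and 49.5% of genes lay above WT. The members' median was 0.11 without KO replicate 2, 0.19 without WT replicate 2, 0.53 without KO replicate 3 and 0.67 without WT replicate 3.

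**Figure D1:**
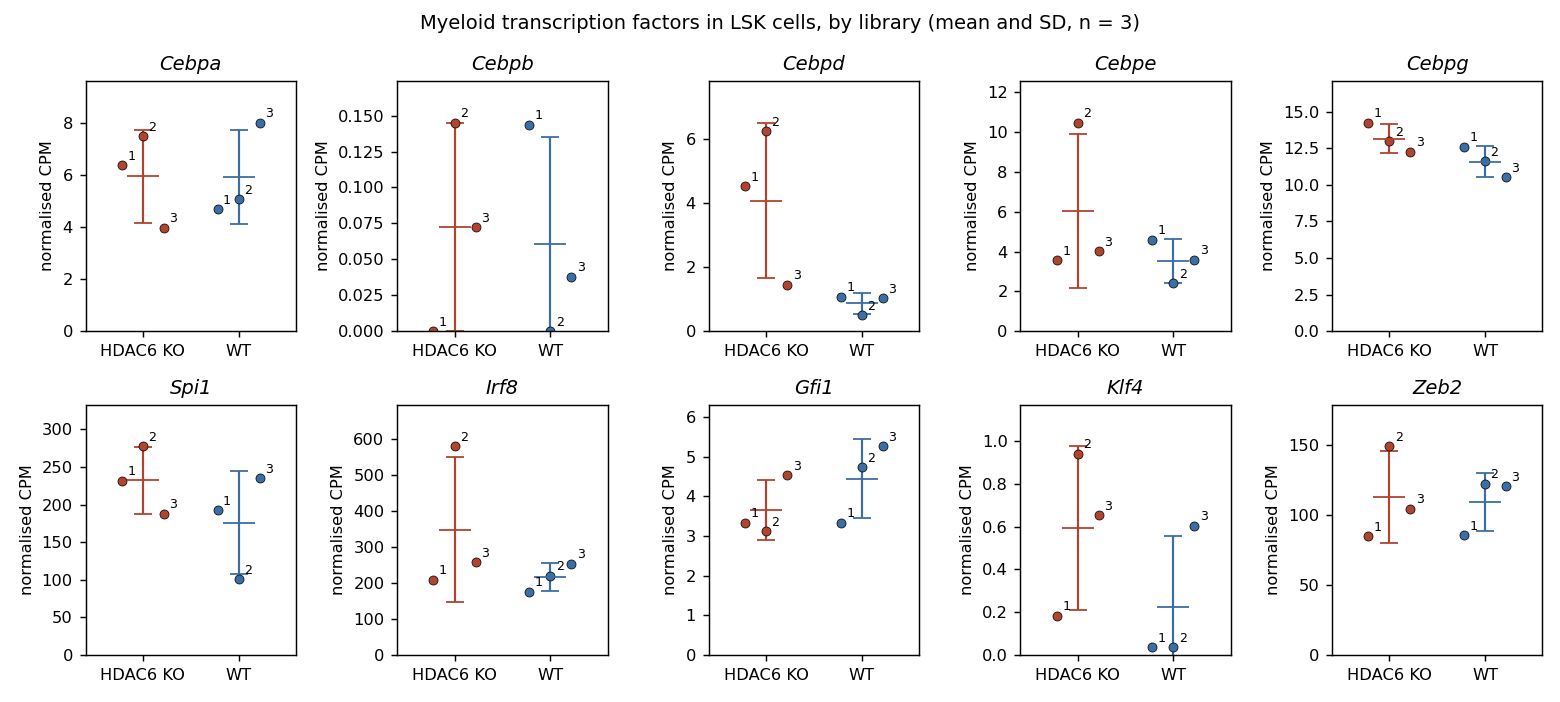
Normalised CPM of each factor (vertical axes, from 0, a scale of its own per gene) in the 3 HDAC6 KO and 3 WT libraries. Points are libraries with their replicate number, bars are the mean and SD. Cebpd is the gene whose groups do not overlap, and KO replicate 2 is the highest point for Cebpd, Cebpe, Irf8, Klf4, Spi1 and Zeb2 among the tested factors.

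The 5 C/EBP proteins share a basic region that contacts DNA and a leucine zipper that joins them in pairs. The coding stretch of the basic region is shown for 4 of the genes, 60 bases 5′ to 3′ on the sense strand from GENCODE M21 transcripts (GRCm38). Capitals mark the 27 bases that encode the amino acid pattern N..AV..SR (a dot is any amino acid), which was used to place the window.
Cebpa: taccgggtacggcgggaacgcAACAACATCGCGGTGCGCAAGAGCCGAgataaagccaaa
Cebpb: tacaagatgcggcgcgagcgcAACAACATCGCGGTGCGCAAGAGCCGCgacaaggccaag
Cebpe: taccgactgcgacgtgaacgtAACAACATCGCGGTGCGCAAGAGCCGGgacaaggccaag
Cebpg: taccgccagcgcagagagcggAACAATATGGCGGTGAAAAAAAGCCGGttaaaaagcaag
Cebpg stood apart, with 63.3% to 68.3% identity over these 60 bases to each of the other 3. Over whole transcripts of these 4 genes the longest identical run between any pair was 29 bases, between Cebpa and Cebpb, and the shortest was 12 bases. The deposited counts were whole numbers in all 6 libraries for Cebpa, Cebpb and Cebpe, in 5 for Cebpg and in 0 for Cebpd. Whether reads were shared between the family's genes was not tested.

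Cebpd, the C/EBP-delta gene that is induced by inflammatory signals in many cell types, showed the largest difference from WT among the tested members. It measured 4.52, 6.24 and 1.45 CPM in KO replicates 1, 2 and 3, against 1.08, 0.495 and 1.02 CPM in WT replicates 1, 2 and 3. Every KO library lay above every WT library, but KO replicate 3 was much closer to the WT libraries than to the other KO libraries. Groups that did not overlap in this way were found for 1 of the 9 tested members and for 18.6% of all genes tested, 8.86% with KO higher and 9.7% with KO lower. The mean was 4.07 ± 2.42 CPM in KO and 0.865 ± 0.321 CPM in WT (SD, n = 3 each), 4.70 times as high in KO. The log2 fold change was 2.23 (SE 0.61, 95% interval 0.87 to 3.58), with an edgeR p of 0.0043 before and 0.298 after adjustment, and the gene ranked 174 of 12875 by p. DESeq2 gave a log2 fold change of 2.24 (SE 0.63) and an adjusted p of 0.039. In simulated data for KO against WT, 13.1% of the calls of DESeq2 were false, against 3.49% of those of edgeR. The simulated counts followed the spread fitted by edgeR, with no library set apart, so these shares need not hold for the real libraries. With 1 library left out the edgeR log2 fold change ran from 1.78 without KO replicate 2 to 2.63 without KO replicate 3, and the edgeR adjusted p from 0.057 to 0.744.

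The deposited Cebpd counts were 122.63, 171.79 and 40.38 in the KO libraries and 29.86, 14.46 and 27.03 in the WT libraries. They were not whole numbers in any of the 6 libraries, which was true of no other member. In the RefSeq annotation of GRCm38 the span of Cebpd, a single-exon gene on chromosome 16, overlaps that of Spidr, a DNA repair scaffold gene, by 322 bases. The sources used here state neither how reads in such an overlap were assigned nor whether strand was used, so reads of the pair cannot be told apart there. Spidr itself measured 92.9, 93.1 and 90.8 CPM in KO libraries, against 103, 89.5 and 82.4 CPM in WT libraries. These groups overlap, and the Spidr log2 fold change was 0.012 (SE 0.12, edgeR adjusted p = 0.973). These Spidr levels lay far above those of Cebpd, and the WT libraries alone had an SD of 10.3 CPM. A change as small as that of Cebpd could be hidden by this spread, and whether reads were shared was not tested.

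Cebpe, the C/EBP-epsilon gene of terminal neutrophil differentiation, measured 3.56, 10.5 and 4.02 CPM in KO libraries, against 4.60, 2.40 and 3.60 CPM in WT libraries. KO replicate 2 alone was high, and the other KO libraries lay inside the WT range. Its log2 fold change was 0.77 (SE 0.46, 95% interval -0.26 to 1.80, edgeR adjusted p = 0.481), and without KO replicate 2 it was 0.10. Cebpa, the gene whose product starts the granulocyte and monocyte program, measured 6.39, 7.50 and 3.99 CPM in KO libraries, against 4.70, 5.09 and 8.03 CPM in WT libraries. The groups were fully mixed, with the lowest value in KO replicate 3 and the highest in WT replicate 3. The Cebpa log2 fold change was 0.0055 (SE 0.34, 95% interval -0.76 to 0.77, edgeR adjusted p = 0.997), and its sign turned under several alternatives.

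Cebpg, which encodes a short C/EBP that lacks an activation domain and pairs with partners such as ATF4, was the steadiest member. It measured 14.2, 12.98 and 12.3 CPM in KO libraries, against 12.6, 11.6 and 10.5 CPM in WT libraries. The groups overlapped by a small margin, since WT replicate 1 lay above KO replicate 3. The log2 fold change was 0.18 (SE 0.20, 95% interval -0.27 to 0.63, edgeR adjusted p = 0.706). Cebpg overlaps the predicted gene Gm45095 by 1084 bases in the RefSeq annotation, and Gm45095 stayed under 3 CPM, at 0.970 ± 0.394 CPM in KO and 2.26 ± 0.463 CPM in WT (SD, n = 3 each). Cebpb, the C/EBP-beta gene of emergency granulopoiesis, was at the limit of detection, with 0, 4 and 2 counts in KO libraries against 4, 0 and 1 counts in WT libraries. A count of 0 allows up to 3 counts, here 0.106 to 0.114 CPM, and both groups lay around that limit, so no fold is given for Cebpb. This limit covers counting error only.

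**Figure D2:**
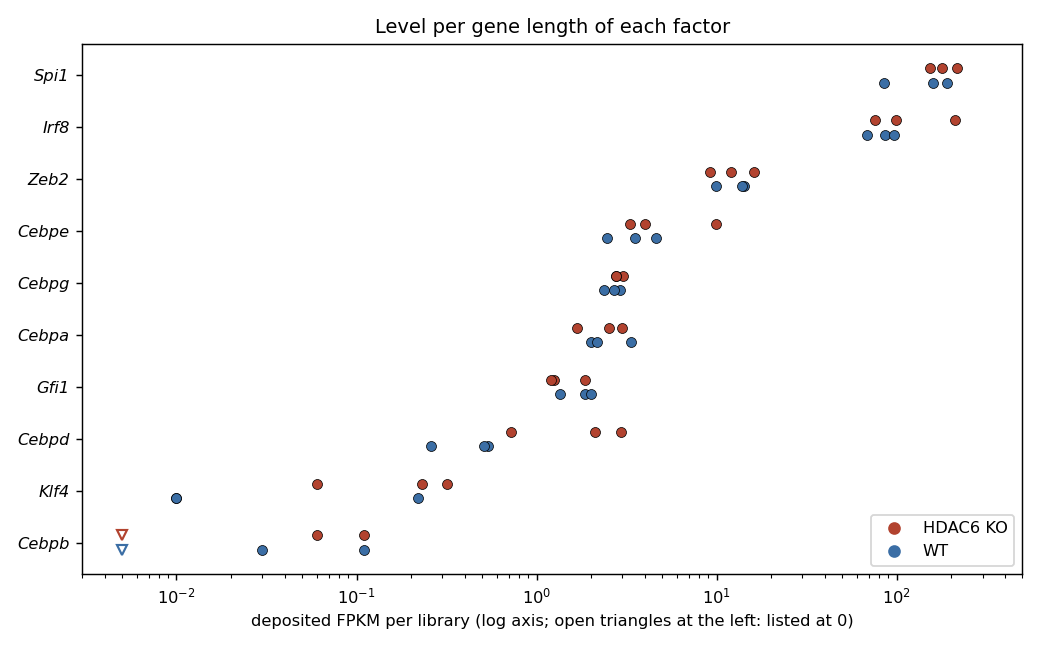
Deposited FPKM (log axis) of each factor in the 3 HDAC6 KO libraries (upper row of points) and the 3 WT libraries (lower row), ordered by the mean over all 6. Spi1 and Irf8 lie above all other factors, and Klf4 and Cebpb lie at the low end, with a library of each genotype listed at 0 for Cebpb.

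Levels were compared between genes only per length, with the deposited FPKM (fragments scaled by gene length and library size). Spi1 was the most abundant member, with a mean of 183 ± 31.5 FPKM in KO and 145 ± 54.5 FPKM in WT (SD, n = 3 each), and Irf8 followed with 129 ± 72.7 FPKM in KO and 84.2 ± 14.5 FPKM in WT. These 2 genes had overlapping ranges over the 6 libraries and lay above 95.9% and 93.1% of all genes in the table. Zeb2 came next at 9.15 to 16.2 FPKM, with no overlap with Irf8 above it. From Zeb2 downward, each member overlapped the next in its range over the 6 libraries: Cebpe, Cebpg, Cebpa, Gfi1, Cebpd, Klf4 and Cebpb. Cebpa, Cebpe, Cebpg, Gfi1 and Cebpd had means between 1.18 and 4.63 FPKM over all libraries, and Klf4 and Cebpb had means of 0.142 and 0.0517 FPKM. The C/EBP genes thus lay far below Spi1 and Irf8 in these cells, as did Gfi1 and Klf4. Cebpe, Cebpg and Cebpa lay above 47.1%, 41.1% and 39.9% of all genes in the table, and Cebpd and Cebpb above 33.2% and 12.5%. For Gfi1 and Klf4 these shares were 35.6% and 18.8%.

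Gene structure varied among the members. Cebpa, Cebpb and Cebpd have a single exon in the longest coding transcript of GENCODE M21, while Spi1 has 5 exons, Irf8 has 9 and Zeb2 has 11. Gfi1 with 6 exons and Klf4 with 5 also lay far below Spi1 and Irf8 in level. The transcripts of 3 C/EBP genes were rich in G and C, with 62.6% for Cebpa, 67.2% for Cebpb and 61.5% for Cebpe, each above at least 97.7% of the matched genes in the table. Cebpd with 51.6% and Cebpg with 43.3% were not, and Spi1, the most abundant member, had 58.9%, above 92.4% of the matched genes. Across the 15113 genes matched to this annotation, the 728 with at least 60% GC had a median of 1.64 FPKM, against 7 FPKM for the 14385 others. The 425 single-exon genes had a median of 0.443 FPKM. Whether GC content or gene structure affected how these libraries recovered the C/EBP transcripts was not tested.

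Spi1 encodes PU.1, the ETS factor needed for all myeloid lineages. It measured 232, 277 and 188 CPM in KO libraries, against 192, 101 and 235 CPM in WT libraries. WT replicate 2 alone was low, and the other WT libraries lay within the KO range. For Spi1 the log2 fold change was 0.40 (SE 0.28, 95% interval -0.22 to 1.03, edgeR adjusted p = 0.54). Without WT replicate 2 it was 0.12, without KO replicate 2 it was 0.26, and without WT replicate 3 it was 0.67.

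Irf8, the partner of PU.1 in monocyte and dendritic progenitors, differed more in 1 library than between genotypes. It measured 209, 578 and 256 CPM in KO replicates 1, 2 and 3, against 176, 219.9 and 253 CPM in WT replicates 1, 2 and 3. KO replicate 1 lay inside the WT range, KO replicate 3 just above it, and KO replicate 2 far above every other library. For Irf8 the log2 fold change was 0.69 (SE 0.36, 95% interval -0.16 to 1.53, edgeR adjusted p = 0.44), and without KO replicate 2 it was 0.11 (edgeR adjusted p = 0.909).

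Irf8 is a classical interferon-responsive gene, and STAT proteins are known to bind a site of the form TTCNNNGAA (the GAS element) before its first exon. The 250 bases upstream of its first annotated start are shown because Irf8 was the abundant member that differed most between libraries. They lie at chr8:120736108-120736357 on the plus strand of GRCm38.p6, from RefSeq, with capitals at each match to TTCNNNGAA.
Irf8: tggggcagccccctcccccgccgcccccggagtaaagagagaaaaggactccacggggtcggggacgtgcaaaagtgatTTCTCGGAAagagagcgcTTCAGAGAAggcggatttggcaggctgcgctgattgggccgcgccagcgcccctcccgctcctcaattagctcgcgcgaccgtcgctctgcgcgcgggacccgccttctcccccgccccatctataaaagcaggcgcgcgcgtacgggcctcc
The motif reads the same on both strands, and its 2 matches begin 171 and 153 bases before the start without overlapping. Of 32851 RefSeq promoter windows of 300 bases (250 before and 50 after a start), 8.3% hold at least 1 match, and among the members Irf8 and Zeb2 do. Promoter windows were present for 7 of the 10 members. The windows of Zeb2 held the PU.1 motif GAGGAA at each of its 4 annotated starts, and 28.3% of all windows hold it on either strand. However, 2 of these Zeb2 windows overlap, and their matches, 16 and 42 bases before their starts, are the same bases. The PU.1 motif did not occur in the windows of the other 6 members. The C/EBP motif TTGCNNAA, found in 10.8% of all windows, occurred for Zeb2 and Gfi1. These matches describe the letters of the windows only.

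Zeb2, a zinc finger repressor needed for plasmacytoid dendritic cells and monocytes, measured 85.1, 149 and 105 CPM in KO libraries, against 85.8, 123 and 121 CPM in WT libraries. KO replicate 2 was the highest library and KO replicate 1 the lowest, so the KO values enclosed the WT values. Zeb2 had a log2 fold change of 0.043 (SE 0.21, 95% interval -0.42 to 0.50, edgeR adjusted p = 0.94), and it was -0.21 without KO replicate 2. The antisense gene Zeb2os overlaps Zeb2 and was not analysed here, and without a stated strand setting reads from the pair cannot be told apart.

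Gfi1, a zinc finger repressor that restrains stem cell proliferation and favours neutrophils over monocytes, was the 1 member below WT. It measured 3.34, 3.12 and 4.53 CPM in KO libraries, against 3.34, 4.74 and 5.26 CPM in WT libraries. The groups overlapped, with KO replicate 1 and WT replicate 1 almost equal. Gfi1 had a log2 fold change of -0.28 (SE 0.35, 95% interval -1.05 to 0.49, edgeR adjusted p = 0.74). Without WT replicate 3 it was -0.13, without WT replicate 1 it was -0.45, and without KO replicate 2 or 3 it was -0.17 or -0.46. Klf4, which promotes monocyte differentiation, was near the limit of detection, with 5, 26 and 18 counts in KO libraries against 1, 1 and 16 counts in WT libraries. WT replicate 3 lay among the KO libraries and the other WT libraries at 1 count each. Klf4 had a log2 fold change of 1.39 (SE 1.16, 95% interval -1.20 to 3.98, edgeR adjusted p = 0.614), which was 3.90 without WT replicate 3 and 0.88 to 1.81 with another library left out.

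**Figure D3:**
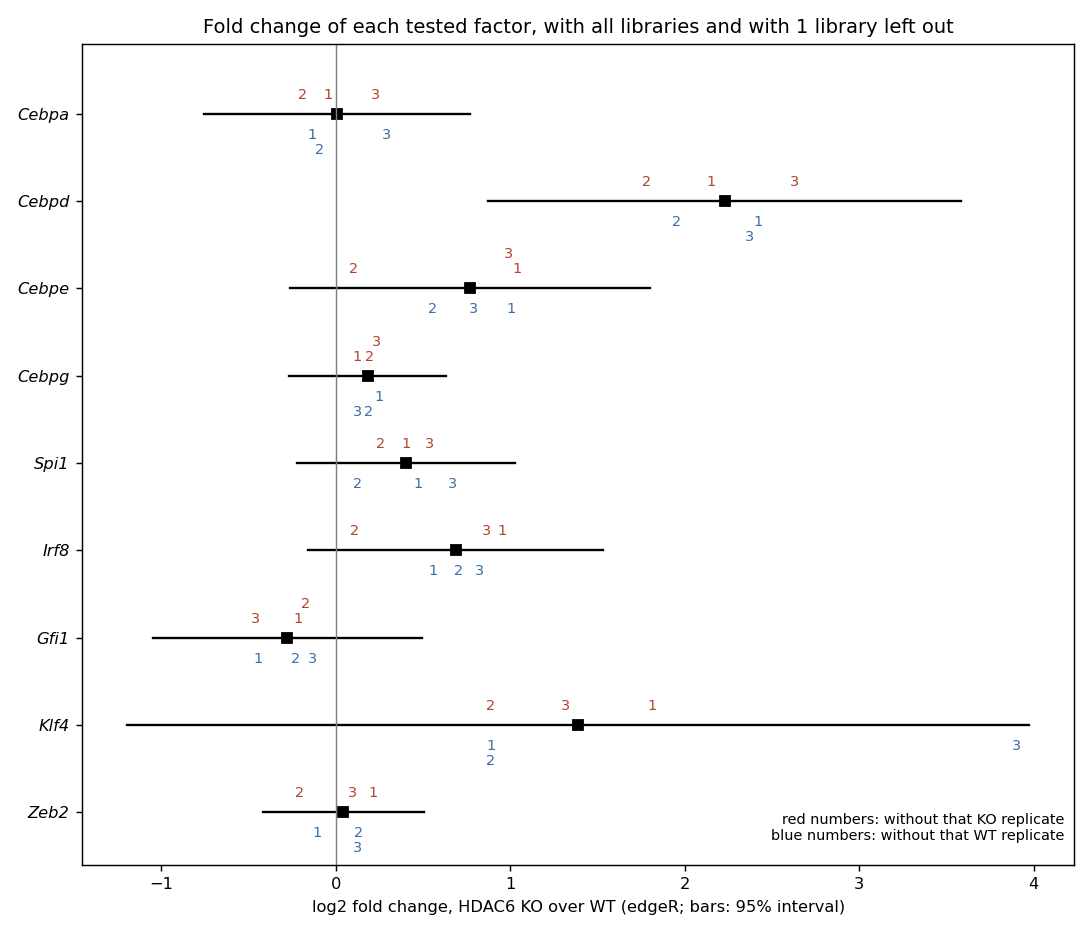
Log2 fold change, HDAC6 KO over WT, of the 9 tested factors (squares, with 95% intervals of the edgeR fit). Red and blue numbers mark the value when that KO or WT replicate was left out. The Cebpd interval of 0.87 to 3.58 lies above 0, and for Irf8 and Cebpe the value without KO replicate 2 falls near 0.

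Across the members, KO replicate 2 held the highest value for 6 of the 9 tested factors, against 2 for WT replicate 3 and 1 for KO replicate 1. WT replicate 2 held the lowest value for 4. The genes that followed a member most closely over the 6 libraries were found by the root mean square difference of mean-centred log2 CPM. For Irf8 they were Rab44 (0.0805 log2 units) and Ffar4 (0.129), where Irf8 itself deviated by 0.549. For Cebpd they were Endog (0.408) and Emilin2 (0.447), where Cebpd deviated by 1.21. For the other members the nearest genes lay at 0.0234 to 0.445 log2 units. They were Tigar and LOC115489545 for Cebpa, Naip6 and Oosp1 for Cebpe, Orc3 and Nifk for Cebpg, and Arhgef1 and Bag1 for Spi1. Gfi1 had Stk11 and Tmem220 nearest, Klf4 had Cfb and Tigit, and Zeb2 had Gpr18 and Frrs1. With 6 libraries and 12875 genes such close matches are easily found, so they describe these libraries only.

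Genes that the factors are known to control were read beside them. Of 20 granulocyte receptor and granule genes, all were tested, 15 lay above WT and 0 were called, with a median log2 fold change of 0.66 against -0.0034 over all genes. KO replicate 2 was the highest library for 16 of these genes. Without that library 11 of 20 lay above WT and the median was 0.0070, and without KO replicate 3 edgeR called 1 of the 20. The smallest p belonged to Cst7, an inhibitor of granule proteases, Csf2rb, the shared receptor chain for GM-CSF, interleukin-3 and interleukin-5, and Il6ra, the interleukin-6 receptor. Cst7 measured 113 ± 35.8 CPM in KO and 63.4 ± 4.08 CPM in WT, and Csf2rb 132 ± 32.3 CPM in KO and 75.9 ± 15.7 CPM in WT (SD, n = 3 each). Both had an edgeR adjusted p of 0.298, though the Csf2rb counts were not whole and a near-identical copy, Csf2rb2, may share its reads. Groups did not overlap for 3 of the 20 genes, against 18.6% of all genes tested. Besides Cst7 and Csf2rb this was Lyz2, which lay below WT. It measured 288 ± 59.3 CPM in KO and 347 ± 13.7 CPM in WT (SD, n = 3 each), and its counts were not whole either. Il6ra had 37.6 ± 10.7 CPM in KO and 24.05 ± 3.68 CPM in WT (SD, n = 3 each) with an edgeR adjusted p of 0.309. Csf3r, the G-CSF receptor gene and a classical C/EBP-alpha target, measured 276, 283 and 308 CPM in KO libraries, against 295, 298 and 319 CPM in WT libraries, and so did not follow KO replicate 2. The Csf3r counts were not whole in any library either.

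Of 22 genes of the monocyte and dendritic branch, 20 were tested, 17 lay above WT and 0 were called, with a median log2 fold change of 0.50. Without KO replicate 2 the median was 0.28, with 18 above WT, and without KO replicate 3 it was 0.17, with 14 above WT. It was 0.85 without KO replicate 1, 0.87 without WT replicate 2 and 0.27 without WT replicate 1. Ly86, a partner chain of the receptor RP105, had the smallest p, with 18.8, 57.7 and 22.3 CPM in KO libraries against 7.83, 15.1 and 14.3 CPM in WT libraries. Its groups did not overlap, and its edgeR adjusted p was 0.306. Bst2, an interferon-induced membrane protein gene, measured 99.4 ± 3.88 CPM in KO and 79.8 ± 10.4 CPM in WT (SD, n = 3 each). Its edgeR adjusted p was 0.34. Ly86 and Bst2 were the 2 of 20 tested genes whose groups did not overlap, against 18.6% of all genes tested. Cd14, the lipopolysaccharide coreceptor gene, measured 2.32 ± 1.49 CPM in KO and 0.958 ± 0.186 CPM in WT (SD, n = 3 each), with an edgeR adjusted p of 0.402. Ly6c2, a gene of classical monocytes, reached 443 CPM in KO replicate 2, against 58.3 and 129.8 CPM in KO replicates 1 and 3 and 29.7 to 76.8 CPM in WT libraries, but its counts were not whole and the close copy Ly6c1 may share its reads.

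**Figure D4:**
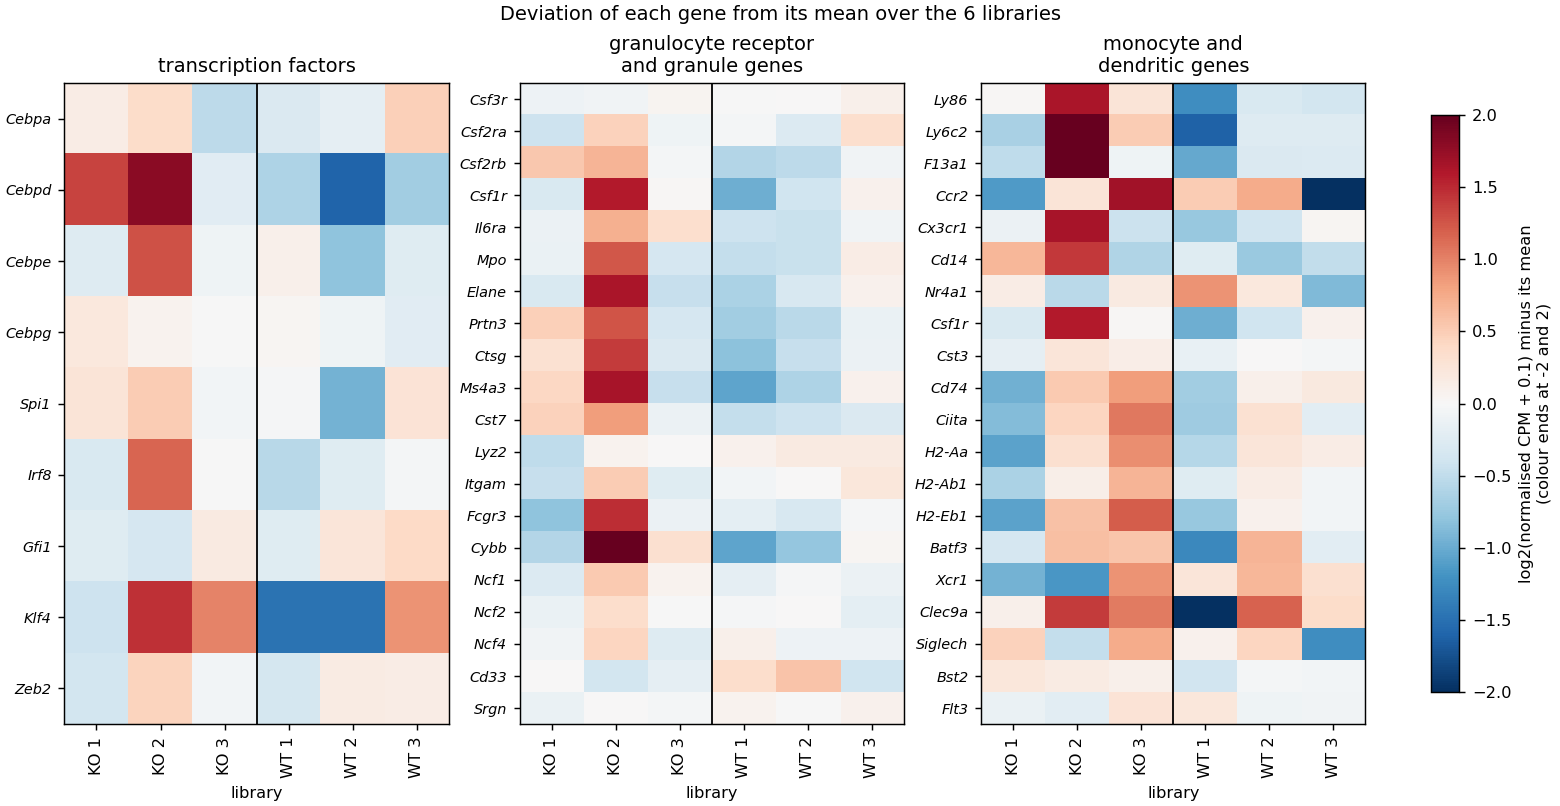
Deviation of each tested gene from its mean over the 6 libraries, as log2(normalised CPM + 0.1), for the factors, the granulocyte genes and the monocyte and dendritic genes; the black line parts the KO libraries (left) from the WT libraries (right). KO replicate 2 is red across most granulocyte genes, and the antigen presentation genes such as Cd74 and H2-Eb1 are red in KO replicate 3 and blue in KO replicate 1.

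Partners and antagonists of the factors lay on both sides of WT, with 10 of 20 above it, 0 called and a median log2 fold change of -0.0087, which was 0.14 without WT replicate 3. Atf4, whose product pairs with C/EBP-gamma, measured 120.4, 108 and 118 CPM in KO libraries, against 82.4, 96.5 and 93.1 CPM in WT libraries. Tcf4, the E protein gene of plasmacytoid dendritic cells, measured 130.3, 128 and 129.9 CPM in KO libraries, against 166, 164 and 153 CPM in WT libraries. Gfi1b, the erythroid and megakaryocytic relative of Gfi1, measured 59.7, 65.2 and 77.2 CPM in KO libraries, against 98.95, 91.0 and 79.2 CPM in WT libraries. These 3 genes were named for the smallest p of their list. Groups did not overlap for 6 of the 20 genes, these 3 among them, against 18.6% of all genes tested. The edgeR adjusted p was 0.307 for Atf4 and Tcf4 and 0.309 for Gfi1b. Runx1, which cooperates with PU.1 and C/EBP-alpha, had a log2 fold change of -0.037 (SE 0.16, edgeR adjusted p = 0.932).

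Markers of other cell types were read in the same libraries, and edgeR called 0 of them. Of 13 mature neutrophil markers 12 were tested and 10 lay below WT, with summed levels of 34.7 to 63.9 CPM in KO and 58.9 to 144 CPM in WT libraries. Those with the smallest p, the granule and alarmin genes Ltf, Ngp and S100a8, had means of 2.16, 4.16 and 5.87 CPM in KO libraries, against 15.3, 17.8 and 15.4 CPM in WT libraries. Ly6g was at 0 in all KO libraries and in WT replicate 2. The part of mature neutrophils in the levels of the members was not tested. The 10 macrophage markers summed to 54.4 to 78.4 CPM in KO and 67.6 to 99.6 CPM in WT libraries, with 7 of 9 tested below WT and Marco at 0 in 2 libraries of each genotype. Spic, C1qb and Mrc1 had means of 2.68, 8.87 and 4.68 CPM in KO libraries, against 5.78, 12.7 and 8.10 CPM in WT libraries.

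Mast cell and basophil markers were highest in KO replicate 2 for 7 of 7 genes. They summed to 317 CPM there, against 171 and 179 CPM in KO replicates 1 and 3 and 148 to 184 CPM in WT libraries. Their median log2 fold change was 0.74, with 7 of 7 above WT, and without KO replicate 2 it was 0.24, with 6 of 7 above WT. The IgE receptor gene Fcer1a measured 2.72, 9.82 and 3.99 CPM in KO libraries, against 1.47, 0.566 and 1.25 CPM in WT libraries. The basophil protease genes Mcpt8 and Prss34 averaged 35.3 and 19.3 CPM in KO libraries, against 19.3 and 11.6 CPM in WT libraries. These 3 genes, named for the smallest p of the 7, were those whose groups did not overlap, against 18.6% of all genes tested. The edgeR adjusted p was 0.298 for each. The part of mast cells or basophils in the levels of Irf8, Cebpe and Cebpd was not tested.

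Of 11 T and natural killer markers 8 were tested, 6 of them above WT, and their log2 fold changes had a median of 1.51. The 11 summed to 281 to 374 CPM in KO and 273 to 335 CPM in WT libraries, most of it from Nkg7, at 256 to 312 CPM in KO and 260.4 to 311 CPM in WT libraries. These full sums overlapped between the groups. Without Nkg7, left out after the data were seen, the other 10 summed to 24.8, 62.4 and 70.1 CPM in KO libraries. In WT libraries they summed to 12.4, 19.6 and 23.5 CPM, so the lowest KO sum lay just above the highest WT sum. Il2rb, an interleukin-2 receptor chain, measured 8.78, 23.6 and 33.3 CPM in KO libraries, against 2.87, 5.76 and 5.15 CPM in WT libraries. Gzma and Ncr1 averaged 3.40 and 7.74 CPM in KO libraries, against 0.375 and 1.58 CPM in WT libraries. Cd3e was at 0 in all KO libraries and in 2 WT libraries, and WT replicate 3 had 4 counts. Cd3g had 5, 7 and 13 counts in KO libraries and 0 in all WT libraries. Cd3d had 11 counts in KO replicate 2 and 0 in the other 5 libraries. B cell markers summed to 66.7 to 101 CPM in KO and 57.7 to 90.7 CPM in WT libraries, with Ms4a1 at 0 in 2 libraries of each genotype and Cd79b and Vpreb1 at an edgeR adjusted p of 0.705 and 0.784. Erythroid markers summed to 128 to 287 CPM in KO and 121 to 175 CPM in WT libraries, where Car1 and Hbb-bt averaged 170 and 6.83 CPM in KO and 93.6 and 11.7 CPM in WT libraries. Megakaryocyte markers summed to 432 to 611 CPM in KO and 619 to 717 CPM in WT libraries, where Vwf and Pf4 averaged 17.3 and 17.2 CPM in KO and 27.2 and 27.4 CPM in WT libraries. Of 10 markers of the sorted fraction 7 lay below WT and 3 above. Mecom, a stem cell transcription factor gene, lay below, at 36.2 ± 10.8 CPM in KO and 60.4 ± 11.6 CPM in WT libraries (SD, n = 3 each). Ly6a and Cd48 lay above, with averages of 107 and 293 CPM in KO libraries, against 65.1 and 215 CPM in WT libraries. Groups did not overlap for 5 of the 10 genes, against 18.6% of all genes tested. These were Kit, Cd34 and Mecom below WT, and Ly6a and Cd48 above it. What share these cell types had in the levels of the members was not tested.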

How the data were processed

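The authors deposited 1 table that gives each gene an estimated count and its FPKM in every library, per the file headers. Per the submitters' processing notes, the build was GRCm39 and the tools were featureCounts 2.0.3, HISAT2 2.2.1, DESeq2 and SAMtools 1.13, with no roles stated. Gene annotation, strandedness and handling of multi-gene reads are not stated there. The estimated counts the authors deposited were rounded, since 19.6% to 20.9% of the values in a library were not whole. The deposited FPKM values, made by the authors, were used for levels per length and 1 alternative.

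KO and WT were compared by edgeR 4.0.16 (glmQLFit with robust dispersion and its default legacy setting, glmQLFTest) in R 4.3.3, after filterByExpr with a minimum count of 10, which left 12875 genes, and TMM scaling (factors 0.952 to 1.034). P-values were adjusted by Benjamini-Hochberg over all of these genes. SE is the log2 fold change over the root of F. The alternatives were RLE, upper-quartile and no scaling, no filter and a filter of 5 CPM in 3 libraries, DESeq2 1.42.0, limma 3.58.1 (voom with sample weights, and log2(FPKM + 1)), the newer edgeR option, a block for the replicate number, omission of each library, and an adjusted p of 0.01. Leaving out libraries for the lists of partners, target genes and other cell types' markers, and a sum of T and natural killer markers without Nkg7, were added after seeing the data.

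The members, the gene lists and the tests were chosen with earlier results of these data known. Named genes were the members, Hdac6, the 3 tested genes with the smallest p of each other list, and the 2 nearest genes per member, and other genes were named after their values were seen. A few items that this rule selects are not reported here. Promoter windows came from RefSeq (GRCm38.p6) and transcripts from GENCODE M21 (GRCm38), for sequence and gene structure only. All library pairs differed beyond sampling noise, with a chi-square of 25.8 to 91.4 per degree of freedom, so each counted as 1 sample. Simulated data on 12875 genes for KO against WT had 200 changed genes in each of 5 simulations. Their counts followed the dispersion trend of the edgeR fit, with no library set apart. In these data edgeR recovered 25.6%, 59.5% and 87.6% of 1.5-fold, 2-fold and 4-fold changes. Since no gene had a spread of its own there, these shares need not hold for the real libraries.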

Additional observations from a re-analysis of the deposited data

How the results depend on the processing

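With 1 library left out, edgeR called 0 members each time, 0 to 30 genes higher and 1 to 14 genes lower, with both highest counts without KO replicate 3 (without KO replicate 1 they were 1 and 3), and the members' median log2 fold change ran from 0.11 to 0.67. DESeq2 called 1 member, Cebpd, with 120 genes higher and 61 lower, where edgeR called 0 higher and 1 lower. No other alternative called a member. The direction of 2 members was not fixed. Cebpa turned to -0.049 under upper-quartile scaling, -0.075 with library size alone, -0.0069 with the stricter filter and -0.051 on log2(FPKM + 1), and with 1 library left out it ran from -0.19 to 0.29. Zeb2 turned to -0.0085, -0.032 and -0.046 under upper-quartile scaling, library size alone and log2(FPKM + 1), and ran from -0.21 to 0.21 with 1 library left out. The cause was not tested. The other 7 tested members kept their sign under every alternative that gave a value. The stricter filter kept 5 members and left Cebpd, Cebpe, Gfi1 and Klf4 without a value. Same-numbered samples did not deviate together, with correlations of -0.122 to 0.0335 over 12875 genes. The labels do not say that numbers pair samples, and with the replicate block 0 members were called and the Cebpd log2 fold change was 2.06 (edgeR adjusted p = 0.456). Depth limits Klf4 and Cebpb most, at 0 to 26 counts per library.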
